A study of Mus musculus with 8 samples.

Results

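The 6 genes described here, Stk38l, Tnfrsf23, Scel, Nell2, Bcam and Tmem108, were selected from the 13687 genes measured by RNAseq in mouse peritoneal mesothelial cells (MCs), because each moved the same way on stretch in all 4 animals. They belong to no single pathway. Stk38l and Tnfrsf23 were higher, and Scel, Nell2, Bcam and Tmem108 were lower, in the stretched culture of every animal, as were 14.5% and 16.9% of all genes tested. The selection used these stretch differences, so they are given as descriptions with no test, while the comparison of genotypes was not part of the selection and was tested.

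MCs line the peritoneal cavity and are deformed by movements of the abdomen and of the organs it holds. They are epithelial-like cells resting on a basement membrane, and under injury or mechanical load they can acquire mesenchymal traits, a process named mesothelial-to-mesenchymal transition. Caveolin-1, encoded by Cav1, is a structural protein of caveolae, invaginations of the plasma membrane that flatten when membrane tension rises.

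Primary MCs had been isolated from wild-type mice (WT) and from their CAV1-/- littermates, which carry the germline null allele of the strain B6.Cg-CAV1tm1mls/J. From each mouse 1 culture was kept static and 1 was placed under cyclic stretch for 24 h after reaching confluence. This gave 4 groups of 2 libraries, from WT animals 3 and 4 and CAV1-/- animals 1 and 2 in the numbering of the labels. Cav1 is disrupted in every cell of the CAV1-/- mice throughout life, the cultures are unsorted primary isolates, and age is not given in the labels. The Y-linked genes Ddx3y, Eif2s3y, Kdm5d and Uty were read at similar levels in all 8 libraries.

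Values are TMM-normalized CPM, in which the reads of a gene are scaled to a library total that is common to all samples and adjusted for composition. Library totals ran from 9777738 to 21203938 reads, and all 4 stretched libraries (at least 15861571 reads) were deeper than every static library (at most 14237503 reads). Cav1 had 764 and 275 CPM in static WT, 570 and 247 in stretched WT, 34.5 and 18.9 in static CAV1-/- and 20.0 and 12.8 in stretched CAV1-/- MCs, with the CAV1-/- values below every WT value. The mesothelial identity was checked with 11 markers, of which 10 had values and Calb2 had none. Their summed level was 2820 to 3570 CPM in WT and 843.5 to 1084 CPM in CAV1-/- MCs. Of the 12 leukocyte markers 10 had values, and all 10 were highest in the static and stretched libraries of CAV1-/- animal 1, where they summed to 4504 and 4593 CPM, against 67.9 to 439.5 CPM in WT and 279.5 and 310.8 CPM in CAV1-/- animal 2. The 7 fibroblast markers summed to 12170 (static) and 11000 CPM (stretched) in WT animal 3, and to 23020 and 18150 CPM in animal 4. In CAV1-/- animal 1 they summed to 11090 and 11640 CPM, and in animal 2 to 26350 and 23390 CPM. In bulk RNA, fewer cells of a type and less RNA per cell cannot be told apart.

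Stk38l encodes the serine/threonine kinase NDR2, a relative of the LATS kinases of the Hippo pathway. It lies on chromosome 6 (chr6:146724995-146778812, plus strand, GRCm38, ENSMUSG00000001630). In WT MCs it had 62.7 and 36.6 CPM in static culture and 182 and 73.2 CPM on stretch, in animals 3 and 4. In CAV1-/- MCs it had 116 and 44.4 CPM in static culture and 299 and 89.2 CPM on stretch, in animals 1 and 2. The stretched culture held 2.90 and 2.00 times the static level in WT and 2.58 and 2.01 times in CAV1-/-, and the static and stretched values overlapped within CAV1-/- but not within WT. Between 432 and 6160 reads lay behind each value.

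Tnfrsf23 encodes a mouse decoy receptor for the death ligand TRAIL, which binds the ligand and has no death domain. It lies on chromosome 7 (chr7:143665809-143685872, minus strand, ENSMUSG00000037613). In WT MCs it had 103 and 86.7 CPM in static culture and 180 and 133 CPM on stretch. In CAV1-/- MCs it had 153 and 70.8 CPM in static culture and 243 and 114 CPM on stretch. These are ratios of 1.75 and 1.54 in WT and of 1.59 and 1.60 in CAV1-/-. This was the narrowest range of the 6 genes, with a mean difference of 0.69 ± 0.079 (SD, n = 4 animals) on the log2(value + 1) scale, which adds 1 CPM before the logarithm and understates the change of low values. For Stk38l the corresponding mean was 1.21 ± 0.27.

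**Figure D1:**
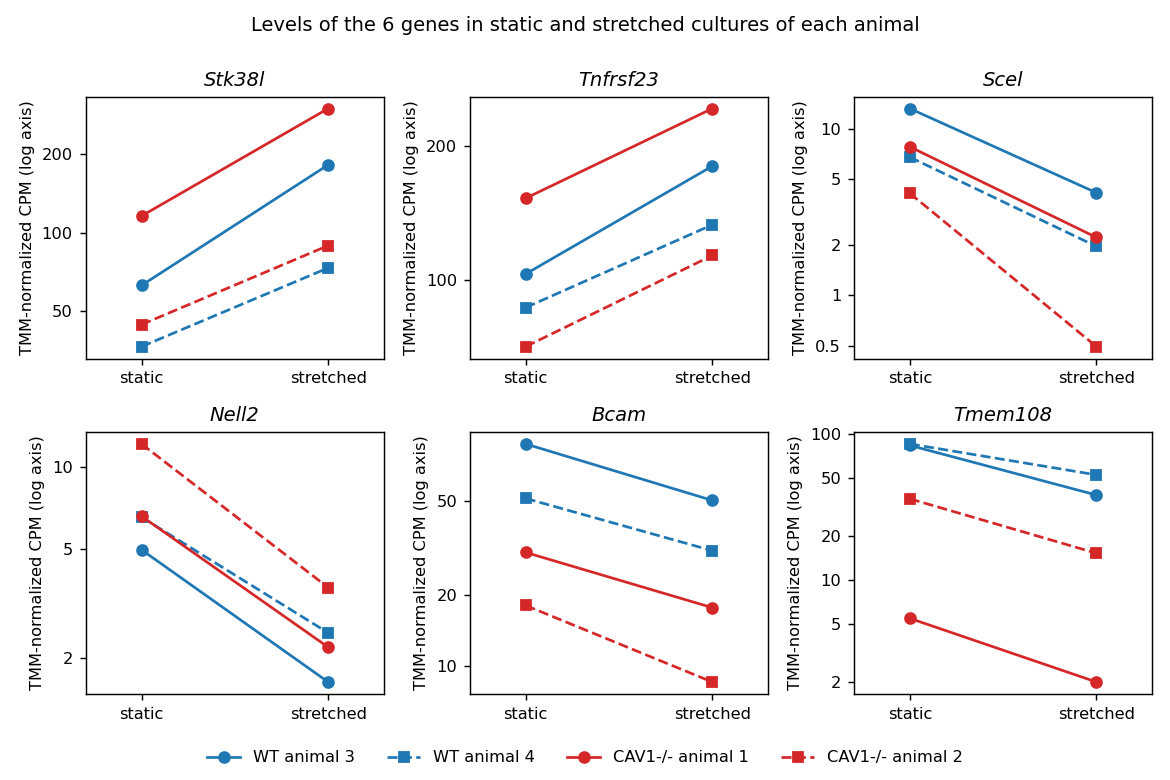
The level of each gene (vertical log axis, TMM-normalized CPM) in the static and the stretched culture, with 1 line per animal, WT in blue and CAV1-/- in red. Stk38l and Tnfrsf23 rise along every line, and Scel, Nell2, Bcam and Tmem108 fall along every line, while the starting levels differ between animals.

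The sequences just upstream of the RefSeq starts of the genes that were higher on stretch are shown for the binding motifs they hold. Windows of 250 bases before the start, 5′ to 3′ on the strand of the gene, were taken from RefSeq (GRCm38.p6) and found for 5 of the 6 genes, with 2 starts for Tmem108. Nell2 was not matched. In the Stk38l window capitals mark a cyclic AMP response element, and no letter is marked in the Tnfrsf23 window.
Stk38l, chr6:146724680-146724929, plus strand: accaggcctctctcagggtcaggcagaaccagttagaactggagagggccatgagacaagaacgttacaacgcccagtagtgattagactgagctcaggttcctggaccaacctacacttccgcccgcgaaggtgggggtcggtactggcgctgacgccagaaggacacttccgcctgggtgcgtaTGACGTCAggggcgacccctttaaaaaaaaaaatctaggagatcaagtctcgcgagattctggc
Tnfrsf23, chr7:143685876-143686125, minus strand: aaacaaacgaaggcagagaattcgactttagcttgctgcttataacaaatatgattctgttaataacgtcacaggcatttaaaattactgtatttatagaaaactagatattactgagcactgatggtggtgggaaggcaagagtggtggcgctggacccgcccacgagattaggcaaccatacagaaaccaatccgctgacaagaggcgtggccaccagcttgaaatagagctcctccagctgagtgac
The element of Stk38l (TGACGTCA) lies 64 to 57 bases before the start, and 1.55% of the 32851 promoter windows of the same length hold it. Both windows hold a GC box (GGGCGG on either strand), as do 32.74% of all windows, and that of Tnfrsf23 also a CCAAT box (CCAAT on either strand, in 33.85% of windows). The CArG box, in 1.47% of windows, was found in none of the 6 windows. A match is a run of letters and does not show binding.

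Scel encodes sciellin, a precursor of the cornified envelope of stratified epithelia. It lies on chromosome 14 (chr14:103513342-103612797, plus strand, ENSMUSG00000022123) and was a low gene in these cells. It had 13.3 and 6.78 CPM in static and 4.14 and 1.97 CPM in stretched WT MCs, and 7.83 and 4.11 CPM in static and 2.23 and 0.493 CPM in stretched CAV1-/- MCs. The static level was 3.21 and 3.44 times the stretched level in WT and 3.51 and 8.35 times in CAV1-/-. The last ratio rests on 9 reads in the stretched culture and has a 95% interval of 3.99 to 19.6, which covers counting error only. In the window before its start, 36 to 30 bases upstream, stands an AP-1 motif (TGANTCA on either strand, in 6.75% of all windows), marked here in capitals.
Scel, chr14:103513091-103513340, plus strand: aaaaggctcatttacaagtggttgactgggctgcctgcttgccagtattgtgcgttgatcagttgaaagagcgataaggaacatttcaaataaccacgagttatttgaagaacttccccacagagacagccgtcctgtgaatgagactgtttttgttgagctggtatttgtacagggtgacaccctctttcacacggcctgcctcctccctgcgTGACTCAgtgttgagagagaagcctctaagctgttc

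Nell2 encodes a secreted glycoprotein with EGF-like repeats that binds the axon guidance receptor Robo3. It lies on chromosome 15 (chr15:95075230-95528559, minus strand, ENSMUSG00000022454). It had 4.97 and 6.54 CPM in static and 1.63 and 2.46 CPM in stretched WT MCs, and 6.59 and 12.1 CPM in static and 2.18 and 3.61 CPM in stretched CAV1-/- MCs. All 4 stretched values lay below all 4 static values, which held for no other of the 6 genes. It held for 201 genes (1.47% of all genes tested). All of them are necessarily among the 2303 genes that were lower on stretch in 4 of 4 animals, as Nell2 was chosen to be. The static level was 2.65 to 3.36 times the stretched level, with 33 to 118 reads behind each value.

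Bcam encodes the Lutheran blood group glycoprotein, an adhesion receptor for laminins that contain the alpha 5 chain. It lies on chromosome 7 (chr7:19756131-19771016, minus strand, ENSMUSG00000002980). It had 86.7 and 51.0 CPM in static and 50.0 and 30.7 CPM in stretched WT MCs, and 30.2 and 18.0 CPM in static and 17.6 and 8.54 CPM in stretched CAV1-/- MCs. The static level was 1.73 and 1.66 times the stretched level in WT and 1.71 and 2.11 times in CAV1-/-. Stretched and static values did not overlap within either genotype, and the static CAV1-/- values lay below the stretched WT values. None of the motifs searched stood in the window of Bcam.

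Tmem108 encodes retrolinkin, a membrane protein of endosomes known in neurons for the trafficking of the BDNF receptor TrkB. It lies on chromosome 9 (chr9:103482947-103761837, minus strand, ENSMUSG00000042757). It had 83.7 and 85.6 CPM in static and 38.2 and 52.5 CPM in stretched WT MCs. In CAV1-/- MCs it had 5.44 and 36.0 CPM in static culture and 1.99 and 15.2 CPM on stretch, so that both values of animal 1 were below both of animal 2. The static level was 2.19 and 1.63 times the stretched level in WT and 2.73 and 2.37 times in CAV1-/-. The window before the second RefSeq start, inside the gene, held a TEAD motif (GGAATG on either strand, in 12.6% of all windows) 23 to 18 bases upstream, in capitals here.
Tmem108, chr9:103692808-103693057, minus strand: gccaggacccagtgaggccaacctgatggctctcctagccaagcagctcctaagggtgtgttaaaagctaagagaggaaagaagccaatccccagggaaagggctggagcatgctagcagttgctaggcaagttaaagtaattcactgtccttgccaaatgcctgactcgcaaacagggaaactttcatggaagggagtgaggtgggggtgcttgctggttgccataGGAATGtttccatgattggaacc

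The background of the selection is wide. Static and stretched values did not overlap within WT for any of the 6 genes, an arrangement with stretched above static in 13.9% of all genes and below in 17.2%, nor within CAV1-/- for Scel, Nell2 and Bcam (12.4% and 11.9% of all genes), while Stk38l, Tnfrsf23 and Tmem108 overlapped there. Of the 13665 genes tested, 1979 (14.5%) were higher and 2303 (16.9%) were lower on stretch in 4 of 4 animals, so 31.3% met the criterion that the 6 genes had to meet. With 1 mean per group and no animal term, neither genotype had a gene past an adjusted p of 0.05 for stretch in limma (0 of 13665 in each), with 310 genes (2.27%) in WT and 286 (2.09%) in CAV1-/- under an unadjusted 0.05. With the animal as a replicate block these numbers were 1979 and 1824 unadjusted and 0 and 1 adjusted. In edgeR the numbers past the adjusted threshold were 0 and 0, and in DESeq2 3 and 7. Ordered by the smallest of the 4 differences, Stk38l held rank 3 and Tnfrsf23 rank 28 among the genes that were higher, and Scel held rank 2, Nell2 rank 5, Bcam rank 19 and Tmem108 rank 21 among those that were lower. The criterion did not ask for a size, and this order is built from the same differences that chose the 6 genes. Ordered by the mean of the 4 differences, Stk38l held rank 15 and Tnfrsf23 rank 108 among the genes that were higher. Scel then held rank 6, Nell2 rank 20, Bcam rank 111 and Tmem108 rank 48 among those that were lower. Other genes of similar size met the criterion and are not among the 6. In the order by smallest difference, Cemip (1.44) ranked above Scel (1.39), Tnfrsf11b (1.04) above Stk38l (0.98), and Cthrc1 (0.61) just below Tnfrsf23 (0.61).

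**Figure D2:**
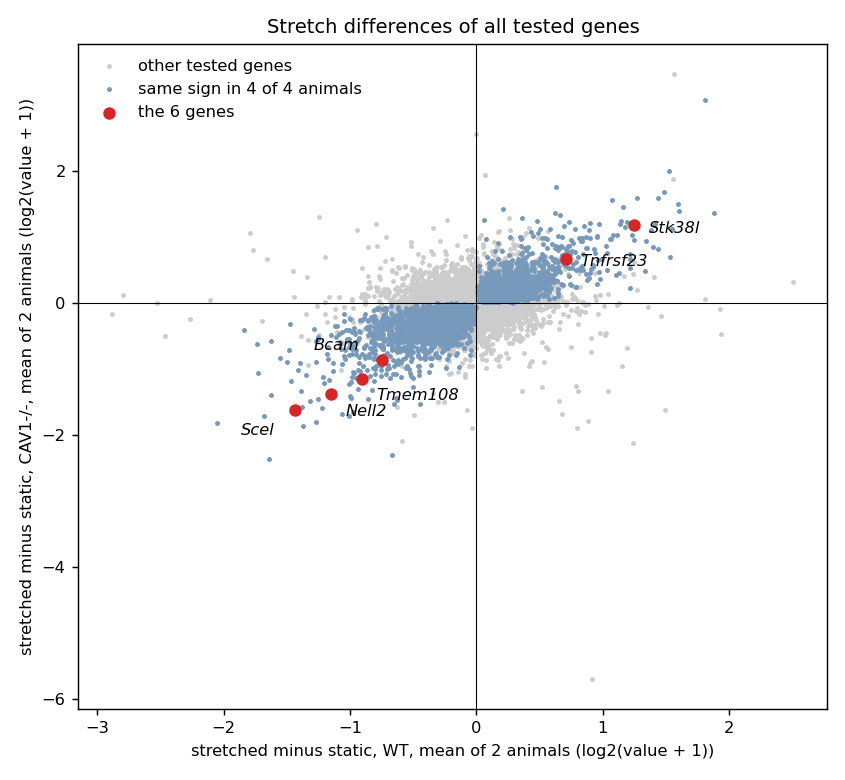
Stretched minus static difference of every gene tested, as the mean of 2 WT animals (horizontal) and of 2 CAV1-/- animals (vertical), on the log2(value + 1) scale. The 6 genes (red) lie near the diagonal, Stk38l and Tnfrsf23 in the upper right and Scel, Nell2, Bcam and Tmem108 in the lower left, among 4282 genes with 1 sign in all 4 animals (blue).

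Within each genotype the differences had the sign that the selection asked for. The mean difference was 1.25 in WT and 1.18 in CAV1-/- for Stk38l and 0.71 and 0.67 for Tnfrsf23. It was -1.43 and -1.61 for Scel, -1.15 and -1.38 for Nell2, -0.75 and -0.87 for Bcam and -0.90 and -1.15 for Tmem108. The difference between genotypes was not tested for these genes, since it is built from the values that chose them.

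CAV1-/- and WT MCs were then compared, first in static culture, then on stretch, and then over the mean of the static and stretched culture of each animal. The ratio of the mean CPM of Bcam in WT to that in CAV1-/- MCs was 2.86 in static and 3.09 in stretched culture. The difference tested, between means of log2(value + 1), was -1.47 ± 0.46 (SE, limma, adjusted p = 0.446) and -1.59 ± 0.46 (adjusted p = 0.515). Its 4 CAV1-/- libraries, at 8.54 to 30.2 CPM, were all below its 4 WT libraries, at 30.7 to 86.7 CPM, though by a narrow gap. For Tmem108 the ratio of mean CPM was 4.09 in static and 5.27 in stretched culture. The difference between its means of log2(value + 1) was -2.47 ± 1.02 (adjusted p = 0.615, limma) and -2.72 ± 1.02 (adjusted p = 0.718). Its CAV1-/- libraries, at 1.99 to 36.0 CPM, also lay below all WT libraries, at 38.2 to 85.6 CPM. Without CAV1-/- animal 1 the Tmem108 difference was -1.21 in static and -1.497 in stretched culture, and without animal 2 it was -3.73 and -3.94. An arrangement with all CAV1-/- libraries below all WT libraries was found in 804 genes (5.88%).

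None of the 6 genes passed an adjusted p of 0.05 in any of the 3 comparisons. Over all genes limma called 10 (0.0732%) in static culture, 8 (0.0585%) on stretch and 0 over the animal means, where 814 (5.96%) were under an unadjusted 0.05. Without adjustment, Bcam was under 0.05 in each of the 3 comparisons and Tmem108 on stretch and over the animal means, beside 8.17% of all genes in static and 6.26% in stretched culture. These comparisons share the same animals. Those in static and in stretched culture take 1 spread from all libraries, as if the cultures of an animal were independent, so their p can be too low. With 2 animals per genotype an exact permutation test cannot give a two-sided p below 0.333. The other 4 genes overlapped between genotypes. The log2 difference was -0.65 (adjusted p = 0.856) in static and -0.83 (0.956) in stretched culture for Scel, and 0.57 (0.800) and 0.34 (0.985) for Nell2, by limma. For Stk38l it was 0.57 and 0.50, and for Tnfrsf23 0.14 and 0.10, with standard errors of 0.77 and 0.47.

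**Figure D3:**
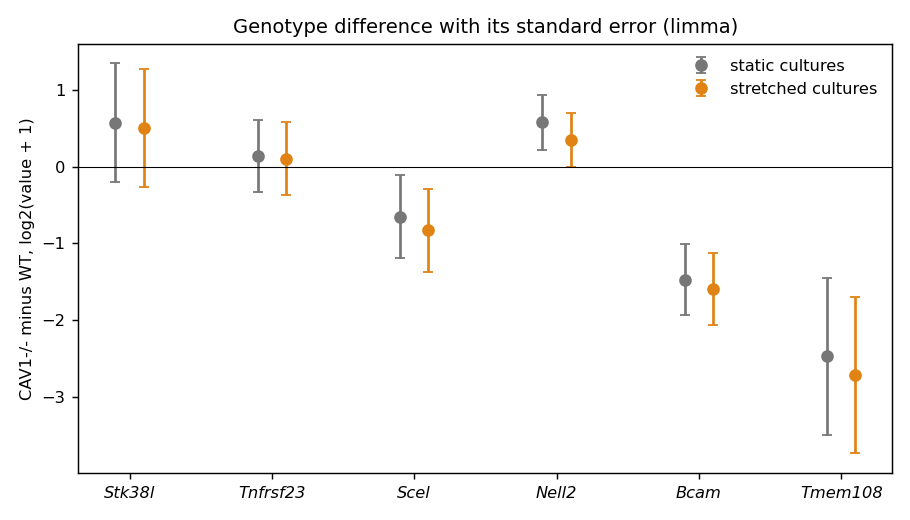
CAV1-/- minus WT difference of each gene on the log2(value + 1) scale in static (grey) and stretched (orange) cultures, 2 animals per genotype, with bars for the standard error from limma. Bcam, Tmem108 and Scel lie below 0 by more than their standard errors, Nell2 lies above 0 by more than its standard error in static culture only, and the differences of Stk38l and Tnfrsf23 are smaller than theirs.

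Mesothelial markers were lower in the same libraries as Bcam and Tmem108. Of the 10 markers with values, 8 were lower in all 4 CAV1-/- libraries than in all 4 WT libraries. Upk3b, a uroplakin of the mesothelial surface, had 388.7, 544.8, 201.6 and 440.8 CPM in WT, in the order static and then stretched, and 13.2, 111.1, 3.15 and 49.5 CPM in CAV1-/-. It held rank 4 among the genes most like Tmem108 over the 8 libraries (Pearson r = 0.989). The markers kept no single order between the CAV1-/- animals. Upk3b, Upk1b, Wt1 and Krt8 were lower in animal 1 than in animal 2 in both conditions, while Msln, Krt19, Pdpn and Gpm6a were higher. Msln had 209.2 CPM (static) and 193.3 CPM (stretched) in animal 1, against 38.0 and 20.4 CPM in animal 2. The leukocyte markers were highest in CAV1-/- animal 1, the animal with the lowest Tmem108. The part of cell composition in the Bcam and Tmem108 values was not tested.

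The 2 animals of a genotype kept 1 order for every gene. Stk38l, Tnfrsf23, Scel and Bcam were higher in WT animal 3 than in animal 4 and in CAV1-/- animal 1 than in animal 2, in static and in stretched culture, and Nell2 and Tmem108 were lower. Over all genes 21.7% were higher and 21.4% were lower in this way, 43.1% in all. For Stk38l the level of static CAV1-/- animal 1 (116 CPM) exceeded that of stretched animal 2 (89.2 CPM).

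Divided by the length of the exons, Tnfrsf23 had the highest level of the 6 genes in 7 of the 8 libraries. In static WT MCs it stood at 26.0 and 21.9 CPM per kb, with Bcam at 27.1 and 15.9, so that these neighbours in the order overlapped. Stk38l followed with 12.9 and 7.50, and Tmem108 with 8.43 and 8.62 overlapped it. Scel had 5.31 and 2.71 and Nell2 1.06 and 1.40 CPM per kb, the lowest. In stretched CAV1-/- MCs Tnfrsf23 (61.3 and 28.7) and Stk38l (61.2 and 18.3) overlapped at the top, Bcam had 5.50 and 2.67, and Tmem108 (0.200 and 1.53), Nell2 (0.468 and 0.773) and Scel (0.892 and 0.197) overlapped at the bottom.

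The genes with the most similar pattern over the 8 libraries, among 10791 genes with a mean of at least 5 CPM, were found by Pearson correlation on the log2 scale, with libraries that share animals and therefore no p. They were Pip4k2a and Psmd5 for Stk38l (r = 0.980 for both), and Tnfrsf22 (0.979) and Smurf2 (0.977) for Tnfrsf23. For Scel they were Tmem106c (0.973) and Col4a5 (0.966), for Nell2 Nfkb2 (0.951) and Nup62 (0.941), for Bcam Rapgef3 (0.986) and Exosc7 (0.984), and for Tmem108 Sv2a (0.995) and Plekhg5 (0.992). Among the 6 genes themselves Stk38l and Tnfrsf23 were most alike (r = 0.959), followed by Scel and Bcam (0.843).

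The TRAIL system around Tnfrsf23 was read from 12 genes, of which 11 had values. Tnfsf10, which encodes the ligand TRAIL itself, had none. Tnfrsf22, the adjacent gene and another decoy receptor, had differences on stretch of 0.75 and 0.60 in WT and 1.15 and 0.56 in CAV1-/-. Tnfrsf11b, which encodes osteoprotegerin, a soluble decoy receptor that also binds TRAIL, had 2.15 and 1.04 in WT and 1.70 and 1.32 in CAV1-/-. Tnfrsf26, a receptor gene of the same cluster, had 0.45, 0.84 and 0.51 in 3 animals and -0.34 in CAV1-/- animal 1. The death receptor Tnfrsf10b stayed between -0.09 and 0.02. Casp8, an initiator caspase of death receptors, had 0.22 and 0.077 in WT and 0.022 and 0.26 in CAV1-/-. Over the 11 genes 4 were higher in 4 of 4 animals, Tnfrsf22, Tnfrsf11b and Casp8 among them, and 0 were lower. Of all genes tested, 14.5% were higher and 16.9% lower in this way. The median difference was 0.15 for the 11 genes, against -0.0093 over all genes. Tnfrsf22 and Tnfrsf23 are similar in sequence. Of the 61-base stretches in the transcripts of Tnfrsf23, 622 of 4015 (15.49%) also occur in those of Tnfrsf22, so part of the reads could have been assigned to either gene.

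**Figure D4:**
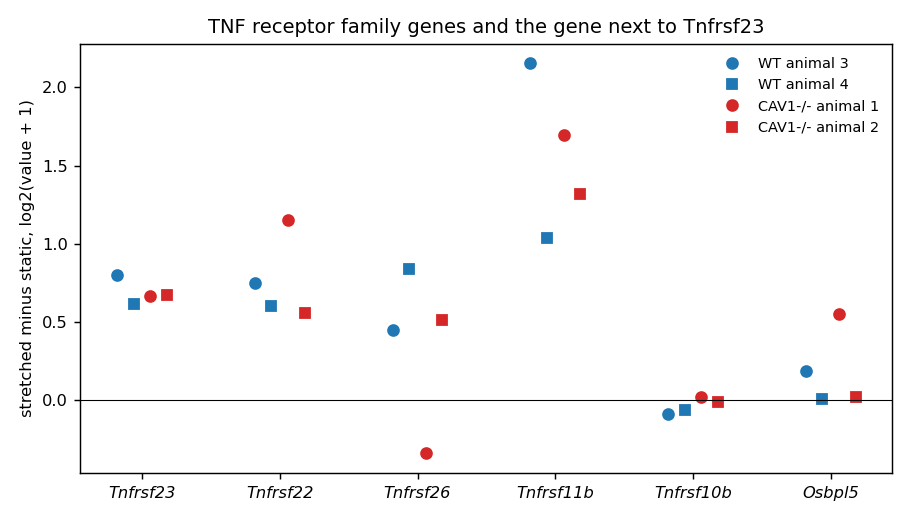
Stretched minus static difference (log2(value + 1)) of 5 TNF receptor family genes and of Osbpl5, the gene next to Tnfrsf23, with 1 point per animal, WT in blue and CAV1-/- in red. All 4 points of Tnfrsf23, Tnfrsf22 and Tnfrsf11b lie above 0.5, those of Tnfrsf10b lie near 0, and Tnfrsf26 has 1 point below 0.

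On the other side of Tnfrsf23, 2890 bases away, Osbpl5 had differences of 0.19, 0.0066, 0.55 and 0.022. Both neighbours of Stk38l were higher on stretch in 4 of 4 animals, as were 14.5% of all genes tested. Arntl2, 17243 bases away, had 0.84, 0.20, 0.82 and 0.68, and Med21, 74263 bases away, 0.49, 0.31, 0.44 and 0.18. Beside Bcam, Pvrl2 was lower in 4 of 4 animals, by 0.09 to 0.48 on the log2 scale, and Bcl3 was not. Of all genes tested, 16.9% were lower in this way. Beside Tmem108, 117107 bases away, Cdv3 was higher on stretch in each animal, by 0.11 to 0.35.

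In the kinase network of Stk38l, 15 genes of the NDR and Hippo group were measured, and 4 were higher (Stk38, Lats1, Mob1b, Wwtr1) and 2 lower (Lats2, Fry) on stretch in 4 of 4 animals. Of all genes tested, 14.5% were higher and 16.9% lower in this way. The paralog Stk38 had 0.29 and 0.013 in WT and 0.28 and 0.10 in CAV1-/-. The median over the 15 genes was 0.026, against -0.0093 over all genes. Fry, a scaffold of NDR kinases, had -0.69 and -0.49 in WT and -0.26 and -0.24 in CAV1-/-. Yap1, the transcriptional coactivator that LATS kinases restrain, stayed between -0.056 and 0.058.

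The 17 laminin and laminin receptor genes chosen beside Bcam had a median stretch difference of -0.23, against -0.0093 over all genes. Of these, 6 were lower in 4 of 4 animals (Lama4, Lama5, Lamb2, Lamc1, Itga7, Dag1) and 1 was higher (Itgb1). Over all genes tested 16.9% were lower and 14.5% higher in this way. Lama5, the laminin chain that Bcam binds, had -1.51 and -0.69 in WT and -0.050 and -0.64 in CAV1-/-. Its genotype difference was -2.19 in static culture (adjusted p = 0.218, limma) and -1.44 on stretch (0.646). Itgb1, the integrin beta 1 chain, had 0.48 and 0.36 in WT and 0.38 and 0.36 in CAV1-/-.

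Of 15 cornified envelope genes with values, 3 were higher (Ivl, Lor, Pkp1) and 3 lower (Ppl, Tgm1, Tgm2) in 4 of 4 animals, with a median of 0.021. Ppl, which encodes periplakin, had -0.46 and -0.58 in WT and -0.13 and -0.42 in CAV1-/- at static levels near 1 CPM in WT. Of the 9 genes of the NELL and Robo group 4 had values, and Robo3 and Nell1 had none. Among these, Slit3, a secreted Robo ligand, was lower in 4 of 4 animals, with -0.91 and -0.39 in WT and -1.55 and -0.35 in CAV1-/-. Of the 12 BDNF and TrkB genes 8 had values, and Ntrk2, which encodes TrkB, had none. Bdnf, Sort1 and Cyfip2 were lower in 4 of 4 animals. In these 6 lists limma called 0 genes between genotypes in static culture, on stretch and over the animal means. The counts on stretch for the lists are descriptions, as no gene passed the adjusted threshold. They stand beside 14.5% of all genes tested that were higher and 16.9% that were lower on stretch in 4 of 4 animals.

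Exons of 3 of the 6 genes overlap those of another annotated gene. Exons of Tmem108 share 1553 bases with those of the antisense gene Gm16252, those of Tnfrsf23 164 bases with E230032D23Rik, and those of Bcam 52 bases with Gm26600. The setting for strand in the counting is not given in the sources used here, and none of the 3 antisense genes had values. Of the 61-base stretches of Stk38l, 15.65% also occur in other genes, mainly Gm3555 and Gm7451. Tmem108 has the longest exons of the 6 genes, 9930 bases in all. The 1327 genes with exons at least as long had a median stretch difference of -0.19 in WT animal 3, 0.011 in WT animal 4, 0.067 in CAV1-/- animal 1 and 0.12 in CAV1-/- animal 2, against -1.11, -0.70, -1.11 and -1.19 for Tmem108.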

How the data were processed

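RNA of 8 cultures (2 WT and 2 CAV1-/- animals, static and stretched) was sequenced as 61-base single reads. After adapter removal (cutadapt) and RSEM quantification against transcripts of GRCm38, the authors deposited a signal per gene and library, TMM-normalized CPM, for 13687 genes. All deposited values (100%) were whole multiples of the value of 1 read, within 0.001 reads, so reads were recovered. Every column was mapped to a sample by its label.

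Genes with at least 1 CPM in at least 2 libraries (13665, which include the 6 genes) were fitted on log2(value + 1), pseudocount 1, by limma (3.58.1, R 4.3.3) with 1 mean per group, an intensity trend and Benjamini-Hochberg adjustment. Replicates are animals, with 1 culture per condition. The labels give fewer animals than the paper's legend states, and the labels were followed. Alternatives were pseudocounts of 0.1 and 5, no filter or a mean of at least 5 CPM, median-of-ratios rescaling, a replicate block, each culture or animal left out, and edgeR quasi-likelihood (4.0.16) and DESeq2 (1.42.0) on the recovered reads, which called 2 and 309 genes between genotypes in static culture and 6 and 238 on stretch. Static and stretched cultures carry the same animal number in the labels, and their deviations from group means correlated (r = 0.703 in WT, 0.85 in CAV1-/-), so differences were taken within animals. Ratio intervals are 95% exact binomial, for counting error only. Scripts were tested on simulated data.

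The 6 genes, the gene lists and the marker lists were chosen with earlier results of these data known. Other genes named are the 2 most correlated genes, the nearest genes with values on each side, genes of the lists, and those next to a member in the ranking. A few genes of these kinds are not reported here. Positions are from GENCODE M21, in which 13597 identifiers were found.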

Additional observations from a re-analysis of the deposited data

Results flagged for a closer look

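The 6 lists held 15, 11, 15, 4, 17 and 8 genes with values. Among these, 6 genes had stretch differences of 1 sign in both WT animals and of the other sign in both CAV1-/- animals. The share of all genes with this arrangement was not counted, so the 6 genes are listed as a description only. The difference between genotypes was not tested for any of them. On the log2(value + 1) scale the CAV1-/- mean minus the WT mean was 1.935 for Lama3, a laminin chain, with -2.37 and -0.53 for WT animals 3 and 4 against 0.67 and 0.30 for CAV1-/- animals 1 and 2. It was 0.885 for Dst, which encodes the cytoskeletal linker dystonin, where WT animals 3 and 4 had -0.98 and -0.018 against 0.28 and 0.49. It was 0.36 for Sptbn1, 0.337 for Lamb1, 0.247 for Nf2 and -0.471 for Bid. Some of the single differences behind these means were small. Nf2 had 0.016 and 0.033 in CAV1-/- animals 1 and 2, and Sptbn1 had -0.036 in WT animal 4. Lama3 was low in CAV1-/- MCs, at 1.40 and 1.54 CPM in static and 2.81 and 2.13 CPM in stretched culture.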

How the results depend on the processing

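The number of genes called between genotypes in static culture was 10, and became 246 with the replicate block, 2 in edgeR and 309 in DESeq2, and 0 to 8 with 1 culture left out. On stretch it was 8, and became 110 with the replicate block, 238 in DESeq2 and 0 to 7 with 1 culture left out. Over the animal means it was 0, and 25 with the replicate block. For stretch it was 0 in both genotypes, and 3 (WT) and 7 (CAV1-/-) in DESeq2 and 1 (CAV1-/-) with the replicate block. The cause was not tested. In the genotype comparisons the block joins cultures that share only a number and come from different animals (r of their deviations 0.522 in static and 0.484 in stretched culture, 2 pairs). With it the adjusted p of Bcam was 0.0147 in static and 0.0147 in stretched culture (limma), the lowest of a range that reached 0.983 and 0.915 over the settings, but 0.0725 over the animal means, and no other of the 6 genes was called. Without 1 culture or animal, the genotype difference of Stk38l ranged from -0.11 to 1.25 in static culture, -0.37 to 1.36 on stretch and -0.24 to 1.31 over the animal means, and that of Tnfrsf23 from -0.41 to 0.69, -0.45 to 0.65 and -0.43 to 0.67, so both changed sign. The stretch difference of Tmem108 in CAV1-/- MCs ranged from -2.41 to 0.11 without 1 culture, a setting that leaves animals unpaired, of which animal 1 is low. Scel, Nell2 and Bcam kept their signs in every setting run. With pseudocounts of 0.1 and 5 the stretch difference of Scel in CAV1-/- MCs was -2.30 and -0.78, and that of Nell2 in WT -1.46 and -0.61. Depth limits Scel most, with 9 reads in 1 library. The 2 animals per genotype limit every comparison.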
